A study of Rattus norvegicus with 24 samples.

Results

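The muscle atrophy ubiquitin ligases were 8 genes chosen by symbol: Fbxo32, Trim63, Fbxo30, Fbxo40, Fbxo21, Fbxo31, Trim54 and Trim55. All 8 were present among the 10851 genes of the deposited table. RNA was sequenced from the medial gastrocnemius, a calf muscle rich in fast fibres, of 24 male Wistar rats, with 1 library per animal and no pooling. Each of 4 groups held 6 rats. Control sedentary (Sed) and control exercised (Ex) rats were given saline. Cardiac cachexia sedentary (CC-Sed) and cardiac cachexia exercised (CC-Ex) rats were given a single injection of monocrotaline, a plant alkaloid that raises pulmonary arterial pressure and leads to right heart failure and muscle wasting. The Ex and CC-Ex rats were trained on a treadmill, and rats of all 4 groups were familiarized with the treadmill and ran exercise tests. Per the study's methods, monocrotaline rats without right ventricle remodeling were excluded and others had died, so both CC groups held survivors with heart disease. The study did not give the rats' age in the sources used here. The comparisons asked how CC changed the muscle in sedentary rats (Sed vs. CC-Sed), in exercised rats (Ex vs. CC-Ex) and on average over both, and whether training changed it.

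Ubiquitin ligases (E3 enzymes) attach ubiquitin to chosen proteins and so mark them for the proteasome. Atrogin-1 (Fbxo32) and MuRF1 (Trim63) are the classical atrogenes, genes induced in wasting muscle under many conditions, and both are known targets of FoxO transcription factors, with Trim63 also a known target of the glucocorticoid receptor. The Fbxo genes encode F-box proteins. Most F-box proteins hold the substrate within an SCF complex built on Skp1 and Cul1, whereas the MuRF proteins carry a RING domain and act at the sarcomere and microtubules.

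The Ensembl gene identifiers in the table were ENSRNOG00000006738 for Fbxo32, ENSRNOG00000016543 for Trim63, ENSRNOG00000014852 for Fbxo30 and ENSRNOG00000002459 for Fbxo40. Those of the remaining genes were ENSRNOG00000001129 for Fbxo21, ENSRNOG00000042274 for Fbxo31, ENSRNOG00000006146 for Trim54 and ENSRNOG00000012723 for Trim55.

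Promoters of the members were read from RefSeq entries on the GRCr8 build, which is not the build of the counts. Each entry ran from 250 bases before a start site to 50 after it, and 6 of the 8 genes had one. Fbxo32 and Trim55 had no entry. The bases before the start site are shown for the MuRF genes that were higher in CC rats, 5′ to 3′ on the gene's strand. For Trim63 they lay at chr5:151816986-151817208 (+ strand), 223 bases that stop at the edge of the annotated gene, so the 27 bases next to the start site of the entry are not shown. The capitals mark a glucocorticoid receptor palindrome (GAACA, then any 3 bases, then TGTTC), followed without a gap by a FoxO element (TTGTTTAC). For Trim54 they lay at chr6:30978476-30978725 (- strand), and the capitals mark E-boxes (CANNTG), the letters bound by MyoD and related factors.
Trim63: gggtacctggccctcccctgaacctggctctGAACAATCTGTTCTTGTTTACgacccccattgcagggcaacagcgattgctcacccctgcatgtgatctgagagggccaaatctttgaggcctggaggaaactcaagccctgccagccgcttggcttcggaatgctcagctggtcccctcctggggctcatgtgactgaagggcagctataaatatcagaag
Trim54: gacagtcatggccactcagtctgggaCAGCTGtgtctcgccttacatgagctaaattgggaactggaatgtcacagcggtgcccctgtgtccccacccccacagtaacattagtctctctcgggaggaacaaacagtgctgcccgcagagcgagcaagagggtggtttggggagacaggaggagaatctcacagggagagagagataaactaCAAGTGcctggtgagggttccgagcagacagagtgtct

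Counted from the start site of the entry, which lies past the printed end, the palindrome of Trim63 began 219 bases before it and the FoxO element 206 before it. Both strands of every entry were searched over the full 300 bases. The palindrome was found in 17 of 33469 promoters (0.0508%), the FoxO element in 1.1% and its core TGTTTAC, which lies inside it, in 3.78%. Among the 6 members with an entry only Trim63 held any of these. E-boxes were found in 4 of the 6 members, Trim63 included, and in 72.1% of all promoters. A match is a description of letters and not a binding site.

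Libraries held between 37816239 and 50350554 estimated counts (median 42891611). The muscle fibre markers matched the label. Of 14 markers, 11 were in the table, and their summed level ran from 120039 to 272401 CPM, the counts scaled to a common library size. Myh1, Myh7 and Mylpf were not among the genes analysed. The first principal component held 39.7% of the variance, and CC-Ex replicate 5 stood apart on it at 96.5, where the other CC rats lay between -16.7 and 51.7 and the 12 controls between -27.8 and -2.56. CC-Sed replicate 4 (-16.3), CC-Ex replicate 1 (-16.7) and CC-Ex replicate 4 (-11.5) lay within the control range. Sed replicate 5 was the control at -2.56. For the ligases and for some of the other genes, values without some of these rats are also given. In bulk muscle, fewer cells of a type and less RNA per cell cannot be told apart. Levels below are CPM after trimmed mean of M values (TMM) scaling. They are not per length, so levels of different genes are not compared.

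The 8 ligases together took 0.0831% to 0.19% of the counts in control rats and 0.103% to 0.984% in CC rats. Fbxo32, Trim63, Fbxo30, Fbxo31 and Trim54 were higher in CC rats when both CC contrasts were averaged, by 1.51-fold (Trim54) to 7.07-fold (Fbxo32). Fbxo40 had nearly the same mean level in all groups. Trim55 had its lower values in CC rats, but it did not pass the test. Training passed the test for no ligase. A gene was called when its adjusted p was under 0.05, by edgeR's quasi-likelihood test with Benjamini-Hochberg adjustment over 10851 genes, and it was a DEG when its Log2FC was also at least 1 in size.

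**Figure D1:**
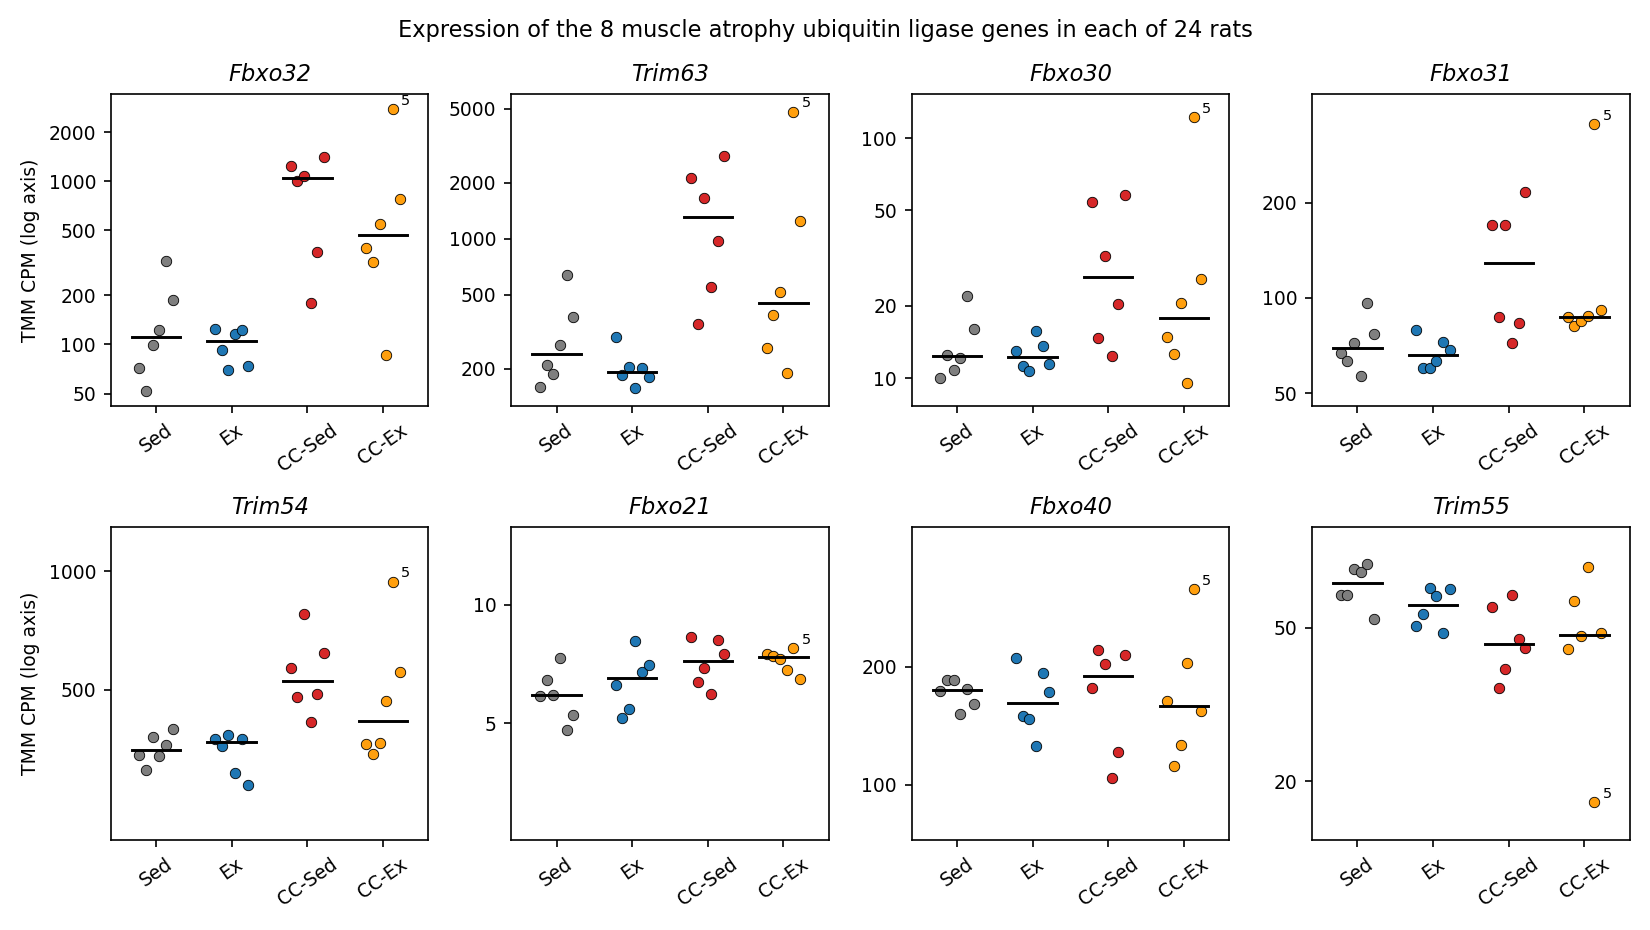
CPM of each of the 8 ligases (log axis) in the 24 rats, by group, with 1 point per rat a bar at the group median of 6 rats, and a 5 beside CC-Ex replicate 5. The Fbxo32 points of CC rats reach from 86.0 to 2755, and CC-Ex replicate 5 is the highest point of its group for 7 of the 8 genes and the lowest for Trim55.

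Fbxo32 encodes atrogin-1, the F-box protein known to bind MyoD and eIF3-f. In Sed rats it ran from 52.3 to 326 CPM (median 111), and in Ex rats from 69.5 to 125 (median 105). In CC-Sed rats it ran from 179 to 1415 (median 1042), and in CC-Ex rats from 86.0 to 2755 (median 470). Sed replicate 5 was the high control and CC-Sed replicate 4 and CC-Ex replicate 4 the low CC rats, so the groups overlapped, with 9 of 12 CC rats above every control. By median the order was CC-Sed, CC-Ex, Sed and Ex, and neither CC-Sed and CC-Ex nor Sed and Ex differed beyond their spread. Fbxo32 rose in CC-Sed rats with a Log2FC of 2.62 ± 0.63 (SE, 6 rats per group; 6.15-fold, 95% CI 2.50 to 15.1; adjusted p = 0.0200, edgeR). In exercised rats it rose by 3.02 ± 0.64 (8.12-fold, 95% CI 3.25 to 20.3; adjusted p = 0.0329, edgeR). The average over both was 2.82 ± 0.45 (adjusted p = 3.77e-04, edgeR), and all 24 fits with 1 rat left out kept that call, with a Log2FC of 2.33 to 3.03.

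The separate calls of Fbxo32 depended on which rats were in the fit. In sedentary rats 9 of the 12 fits with 1 rat left out kept the call, and it was lost without Sed replicate 2 (adjusted p = 0.0555, edgeR), Sed replicate 3 (0.0514) or CC-Sed replicate 6 (0.0541). The Log2FC stayed between 2.41 and 3.05. In exercised rats only 4 of 12 kept it. It was lost without any 1 of the 6 Ex rats (adjusted p = 0.0547 to 0.0943, edgeR), without CC-Ex replicate 6 (0.0869) and without CC-Ex replicate 5 (0.0954), where the Log2FC was 2.07. Without an Ex rat the Log2FC stayed between 2.94 and 3.10. Few genes of any kind were called in the fits that lost it, 2 to 5 of 10851, against 108 with all rats. Over the other alternatives of the exercised comparison the adjusted p ran from 7.45e-05 to 0.169.

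Fbxo30 (MUSA1), the F-box protein known to be repressed by BMP signaling and induced on denervation, lay between 9.99 and 22.0 CPM in Sed rats (median 12.3) and between 10.7 and 15.7 in Ex rats (median 12.2). It lay between 12.3 and 57.9 in CC-Sed rats (median 26.4) and between 9.52 and 123 in CC-Ex rats (median 17.7). CC-Sed replicates 1 and 6 and CC-Ex replicate 5 were the high rats and CC-Ex replicate 4 was below every control, so the groups overlapped, with 5 of 12 CC rats above all controls. The Log2FC was 1.20 ± 0.50 in sedentary rats (adjusted p = 0.125, edgeR) and 1.45 ± 0.50 in exercised rats (0.116), neither past the threshold. On average Fbxo30 rose by 1.33 ± 0.35 (2.51-fold, 95% CI 1.51 to 4.17; adjusted p = 0.0105, edgeR). That call held in all 24 fits with 1 rat left out, and the value fell to 0.78 without CC-Ex replicate 5. In exercised rats the value was 0.39 without CC-Ex replicate 5, and it passed without CC-Ex replicate 4 (adjusted p = 0.0433, edgeR) and with DESeq2 (0.0407). In sedentary rats it passed with limma-voom (adjusted p = 0.0159) and without both Sed replicate 5 and CC-Ex replicate 5 (0.0132, edgeR).

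Fbxo31, an F-box protein known for degrading cyclin D1, ran from 56.9 to 96.3 CPM in Sed rats (median 69.6) and from 60.1 to 79.2 in Ex rats (median 66.0). It ran from 72.3 to 215 in CC-Sed rats (median 129) and from 81.8 to 353 in CC-Ex rats (median 87.4). Every CC-Ex rat was above every Ex rat, a pattern in this direction held by 0.737% of the 10851 genes. Sed and CC-Sed overlapped. Apart from CC-Ex replicate 5 the CC-Ex rats lay close together, between 81.8 and 91.4. The Log2FC was 0.88 ± 0.33 in sedentary rats (adjusted p = 0.0918, edgeR) and 0.96 ± 0.33 in exercised rats (0.112), and without CC-Ex replicate 5 the value in exercised rats was 0.35. It passed in sedentary rats without CC-Sed replicate 4 (adjusted p = 0.0438, edgeR), without both Sed replicate 5 and CC-Ex replicate 5 (0.00881) and with limma-voom (0.00814). On average Fbxo31 rose by 0.92 ± 0.23 (1.89-fold, 95% CI 1.36 to 2.65; adjusted p = 0.00761, edgeR), a call kept in all 24 fits with 1 rat left out, and by 0.60 without CC-Ex replicate 5.

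Fbxo40, a muscle-specific F-box protein known to target Irs1, had a median of 174 CPM in Sed rats, 161 in Ex rats, 190 in CC-Sed rats and 159 in CC-Ex rats. Its spread differed more than its level. Sed rats ran from 151 to 185, Ex rats from 126 to 210, CC-Sed rats from 104 to 220 and CC-Ex rats from 112 to 315. Of the 12 CC rats, 3 lay above and 3 below every control. The Log2FC was 0.01 in sedentary rats (95% CI -0.43 to 0.45; adjusted p = 0.977, edgeR), 0.11 in exercised rats (-0.33 to 0.55) and 0.06 on average (-0.25 to 0.37), and its sign turned under other scalings and left-out rats.

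Fbxo21 (SMART), known to be needed for denervation atrophy, had the lowest counts of the 8 genes (197 to 478 per rat). Its median was 5.88 CPM in Sed rats, 6.50 in Ex rats, 7.21 in CC-Sed rats and 7.36 in CC-Ex rats, and the groups overlapped, with 2 of 12 CC rats above every control. The Log2FC was 0.28 ± 0.12 in sedentary rats (adjusted p = 0.136, edgeR), 0.16 ± 0.12 in exercised rats (0.408) and 0.22 ± 0.08 on average (0.0557), with none past the threshold. The average passed without Sed replicate 4 (adjusted p = 0.0322, edgeR), Ex replicate 4 (0.0286), CC-Sed replicate 2 (0.0441) or CC-Sed replicate 4 (0.0294), and with DESeq2 (0.0398) and limma-voom (0.0225). Over its alternatives it ran from 0.0225 to 0.215.

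Trim63 encodes MuRF1, the RING ligase known to act on myosin heavy chain and other thick filament proteins. In Sed rats it ran from 159 to 640 CPM (median 239), and in Ex rats from 157 to 295 (median 192). In CC-Sed rats it ran from 348 to 2797 (median 1313), and in CC-Ex rats from 190 to 4846 (median 452). Sed replicate 5 was above 6 of the 12 CC rats, and no CC rat was below the lowest control. By median the order was CC-Sed, CC-Ex, Sed and Ex, with CC-Sed and CC-Ex, and likewise Sed and Ex, not differing beyond their spread. Trim63 rose in CC-Sed rats by 2.20 ± 0.65 on the log2 scale (4.59-fold, 95% CI 1.80 to 11.7; adjusted p = 0.0479, edgeR). In exercised rats the Log2FC was 2.61 ± 0.66 and did not pass (6.10-fold, 95% CI 2.35 to 15.8; adjusted p = 0.0529, edgeR). On average it rose by 2.40 ± 0.47 (5.29-fold, 95% CI 2.71 to 10.3; adjusted p = 0.00152, edgeR), in all 24 fits with 1 rat left out, and by 1.75 without CC-Ex replicate 5.

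The separate Trim63 values lay at the threshold. In sedentary rats the call held in 2 of 12 fits with 1 rat left out, those without CC-Sed replicates 2 and 4, and it was lost without any of the 6 Sed rats or without CC-Sed replicates 1, 3, 5 or 6 (adjusted p = 0.0512 to 0.135, edgeR). The Log2FC stayed between 1.86 and 2.55 in these fits, while the number of genes called of 10851 ran from 173 to 1726. In exercised rats the gene passed without CC-Ex replicate 1 (adjusted p = 0.0239, edgeR) or CC-Ex replicate 4 (0.0137), and its Log2FC was 1.34 without CC-Ex replicate 5. It also passed there with DESeq2 (adjusted p = 0.0131), a minimum of 100 counts (0.0493), the library number as a covariate (0.0492) and limma-voom (0.0427, with a Log2FC of 1.27).

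Trim54 encodes MuRF3, known to stabilize microtubules and the sarcomere. It ran from 313 to 396 CPM in Sed rats (median 351), 285 to 384 in Ex rats (median 367), 414 to 778 in CC-Sed rats (median 526) and 343 to 942 in CC-Ex rats (median 416). All 6 CC-Sed rats were above every Sed rat, as in 2.32% of the 10851 genes in this direction, whereas Ex and CC-Ex overlapped, with 3 CC-Ex rats inside the Ex range. Of the 12 CC rats, 9 lay above every control. The Log2FC was 0.65 ± 0.20 in sedentary rats and missed the threshold (95% CI 0.24 to 1.06; adjusted p = 0.0504, edgeR). It passed without CC-Sed replicate 2 (0.0381, edgeR) or CC-Sed replicate 4 (0.0242), and with DESeq2 (0.0260) and limma-voom (0.00407). With edgeR it also passed with upper-quartile scaling (0.0476), a minimum of 100 counts (0.0434), only the groups compared (0.0254) and the library number as a covariate (0.0384). Without both Sed replicate 5 and CC-Ex replicate 5 it passed too (0.0120, edgeR). The adjusted p over the alternatives other than 1 rat left out ran from 0.00407 to 0.0557. In exercised rats it was 0.54 ± 0.20 (adjusted p = 0.128, edgeR), and 0.26 without CC-Ex replicate 5. On average Trim54 rose by 0.60 ± 0.14 (1.51-fold, 95% CI 1.24 to 1.85; adjusted p = 0.00526, edgeR), in all 24 fits with 1 rat left out, and by 0.44 without CC-Ex replicate 5.

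Trim55 encodes MuRF2, known to bind titin at the M-band. It ran from 52.7 to 73.0 CPM in Sed rats (median 65.3), 48.5 to 63.4 in Ex rats (median 57.3), 34.9 to 61.0 in CC-Sed rats (median 45.5) and 17.6 to 71.8 in CC-Ex rats (median 48.1). Of the 12 CC rats, 8 were below every control, and CC-Ex replicate 5, the highest rat for the other MuRF genes, had the lowest value. The groups overlapped in both comparisons. The Log2FC was -0.46 ± 0.21 in sedentary rats (adjusted p = 0.153, edgeR), -0.24 ± 0.21 in exercised rats (0.478) and -0.35 ± 0.15 on average (0.0752), so no call was made. The average passed without CC-Sed replicate 4 (adjusted p = 0.0447, edgeR), CC-Ex replicate 4 (0.0253) or CC-Ex replicate 5 (0.0468), and with limma-voom (0.0114). In sedentary rats it passed with limma-voom (adjusted p = 0.0126) and without both Sed replicate 5 and CC-Ex replicate 5 (0.0411, edgeR). Over the other alternatives the adjusted p of the average ran up to 0.138.

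Counted over the group, 2 of the 8 ligases were called in Sed vs. CC-Sed, both higher and both DEGs, where 6.46% of the 10851 genes were called (4.3% higher) and 1.87% were DEGs. In Ex vs. CC-Ex 1 of 8 was called, also a DEG, where 0.995% of genes were called (0.875% higher) and 0.525% were DEGs. On the average of both, 5 of 8 were called, all higher, where 27.8% of genes were called (17.2% higher), and 3 of 8 were DEGs (Fbxo32, Trim63 and Fbxo30), where 2.88% of genes were. The median Log2FC of the 8 genes was 0.77 in sedentary rats, 0.75 in exercised rats and 0.76 on average, and that of all genes was 0.02, 0.01 and 0.01. At an unadjusted p under 0.05 by edgeR 7 of the 8 passed in sedentary rats (28.4% of all genes), 5 in exercised rats (22.6%) and 7 on average (42.4%). Both CC contrasts were positive for 7 of the 8, with Trim55 the exception. Without both CC-Ex replicates 4 and 5 the average gave 6 calls, the 5 above and Trim55, which fell by 0.32 (adjusted p = 0.0141, edgeR). In that fit 3166 of the 10851 genes were called, against 3017 with all rats. Without both Sed replicate 5 and CC-Ex replicate 5 the average gave 5 calls, where 2559 genes were called. Both sets of rats were chosen after seeing the data.

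**Figure D2:**
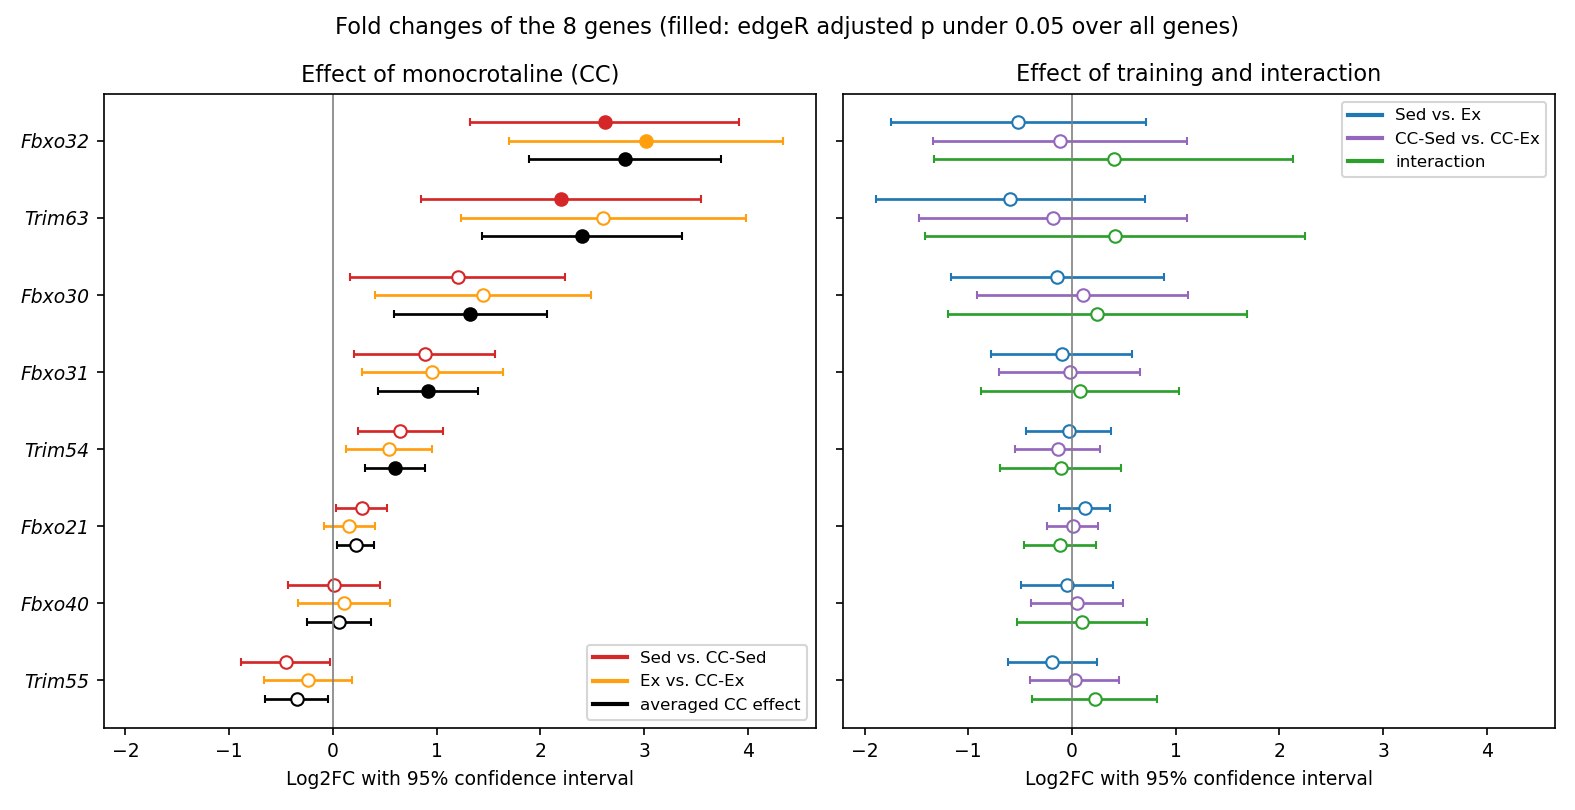
Log2FC (points) with 95% CI (lines) of the 8 ligases, for the CC contrasts on the left and for training and the interaction on the right, from 6 rats per group. Filled points passed an adjusted p of 0.05, and the 5 filled points of the averaged CC contrast run from 0.60 (Trim54) to 2.82 (Fbxo32), while no point on the right is filled.

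The training comparison asked whether treadmill training changed the ligases. In control rats the Log2FC of Ex over Sed was -0.52 for Fbxo32 (95% CI -1.74 to 0.71) and -0.60 for Trim63 (-1.89 to 0.70). In CC rats, CC-Ex over CC-Sed, it was -0.11 for Fbxo32 (-1.34 to 1.11) and -0.18 for Trim63 (-1.48 to 1.11). Of the 6 CC-Ex rats, 5 lay below the CC-Sed median for each of these genes and replicate 5 lay far above it. Without CC-Ex replicate 5 the values were -1.03 for Fbxo32, -1.41 for Trim63 and -0.91 for Fbxo30, and none passed. These were the lowest of 12 fits with 1 rat left out, and the highest were 0.12, 0.13 and 0.36. The interaction, the CC effect in exercised minus that in sedentary rats, was 0.40 for Fbxo32 (95% CI -1.33 to 2.13) and 0.41 for Trim63 (-1.42 to 2.24). These intervals take in differences of more than 2-fold in either direction. Without CC-Ex replicate 5 the interaction was -0.52 for Fbxo32 and -0.82 for Trim63. With edgeR, DESeq2 and limma-voom 0 ligases and 0 of the 10851 genes (0%) were called for training in control rats, training in CC rats or the interaction. At an unadjusted edgeR p under 0.05 there were 118, 234 and 154 genes (1.09%, 2.16% and 1.42%), and no ligase was among them. For Trim55 all 6 Ex rats lay below the Sed median, with a Log2FC of -0.19 (95% CI -0.62 to 0.24; unadjusted p = 0.367, edgeR). The share of all genes with such a pattern was not counted.

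After removal of the group means, 14 of the 28 pairs of ligases were correlated from rat to rat. Pearson's r and Spearman's rho were computed on log2 CPM residuals for all 28 pairs over 24 rats, with 100000 permutations within groups and Benjamini-Hochberg adjustment over the pairs. By r 14 pairs passed, and 11 of these also passed by rho. The smallest r of a passing pair was 0.632 in size, and 60.7% of the 28 pairs reached that size, as did 11.3% of all 58866675 pairs of genes. The median size of r was 0.649 over the 28 pairs and 0.298 over all pairs, which share the libraries and the first principal component. Of the 28 values of r, 20 were positive. Trim63 and Fbxo30 had the highest r at 0.937 (adjusted permutation p = 0.00028; rho = 0.871, 0.00014), and r was 0.879 without the 2 rats farthest from the Trim63 median, CC-Ex replicates 4 and 5. For Fbxo32 and Trim63 r was 0.801 (adjusted permutation p = 0.0021; rho = 0.783, 0.00131), and 0.658 without the same 2 rats. Fbxo30 and Fbxo31 gave 0.916 (adjusted permutation p = 0.000467; rho = 0.815, 0.00131), and 0.764 without CC-Sed replicate 6 and CC-Ex replicate 5. The smallest p these permutations can give is 1e-05.

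Trim55 had a negative r with each of the other 7 genes, of which 2 passed by r (Fbxo32 and Fbxo40) and 0 by rho. With Fbxo32 its r was -0.685 (adjusted permutation p = 0.0211; rho = -0.40, 0.151), and without CC-Ex replicates 4 and 5 it was -0.341, so this relation rested on those rats. With Trim63 its r was -0.556 (adjusted permutation p = 0.108; rho = -0.225, 0.444), and 0.0994 without the same rats. Fbxo21 passed with none of the other 7 genes. Among the 12 CC rats alone 12 pairs passed by r, and among the 12 controls 0 of 28 passed, although the control r was 0.828 for Fbxo32 and Trim63 (unadjusted permutation p = 0.00801, adjusted 0.112). Without CC-Ex replicate 5 the number of pairs that passed was 7.

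**Figure D3:**
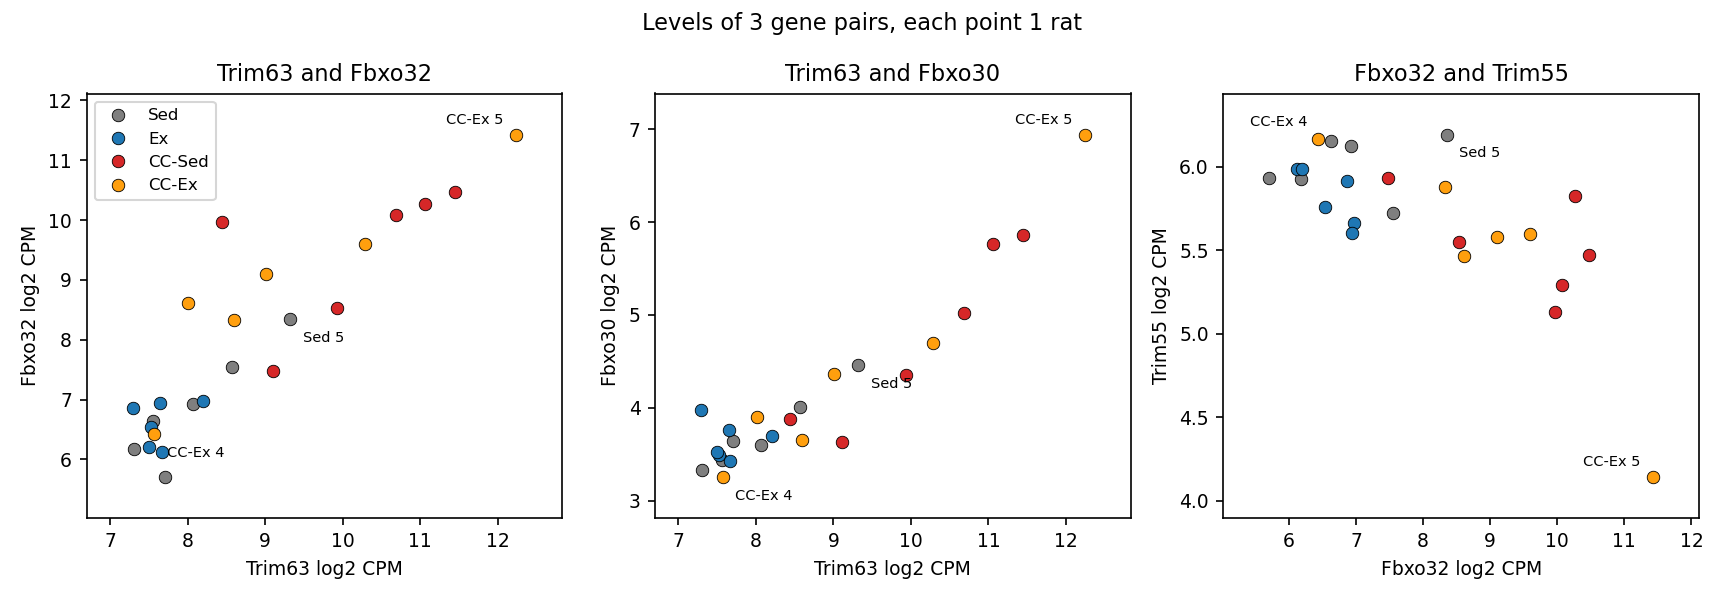
Log2 CPM of 3 pairs of ligases in the 24 rats, with group differences kept, 1 point per rat coloured by group, and CC-Ex replicates 4 and 5 and Sed replicate 5 labelled in the panels. Trim63 and Fbxo30 rise together along a narrow band, and in the panel of Fbxo32 against Trim55 CC-Ex replicate 5 lies far from the rest.

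The genes whose log2 CPM ran most like each ligase over the 24 rats, group differences included, were ranked by Pearson's r among all 10851 genes, as a description. For Fbxo32 these were Pnrc1 (r = 0.949), Ctsl (0.944), which encodes the lysosomal protease cathepsin L, and Gabarapl1 (0.941), which encodes an autophagosome protein. For Trim63 they were Tgif1 (0.961), Smarca5 (0.949) and Hnrnpu (0.948), and for Fbxo30 they were Armcx5 (0.977), Hsf2 (0.972) and Tbc1d15 (0.971). For Fbxo31 the first was Eif3a (0.973), for Trim54 Utp11 (0.954), for Fbxo40 Vkorc1l1 (0.898) and for Fbxo21 Dgkd (0.792). For Trim55 the first was Dmpk, the myotonic dystrophy kinase, at 0.893 and 0.791 without CC-Ex replicate 5. With group means removed Pnrc1 was again first for Fbxo32 (0.895), and for Trim63 the first 5 included Fbxo30 (0.937). All points share their library and its scaling factor.

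Most FoxO factors and known FoxO targets, excluding the ligases themselves, were higher in CC rats on average. Of 15 genes tested, 9 rose in sedentary rats (4.3% of all genes rose), 6 in exercised rats (0.875%) and 14 on average (17.2%), and 0 fell, with a median averaged Log2FC of 1.57 against 0.01 over all genes. Foxo1, which encodes a transcription factor of the insulin pathway, had a mean of 12.6 ± 2.80 CPM (SD, n = 6) in Sed rats, 11.1 ± 1.69 in Ex rats, 66.4 ± 39.8 in CC-Sed rats and 60.7 ± 59.5 in CC-Ex rats. It rose on average by 2.43 ± 0.37 (adjusted p = 2.92e-04, edgeR). Pdk4, which restrains glucose oxidation, rose by 2.34 ± 0.57, Sesn1, an inhibitor of mTORC1, by 2.25 ± 0.36, and Depp1, an autophagy regulator, by 2.06 ± 0.31. Each of these 4 calls held in all 24 fits with 1 rat left out.

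Of 13 glucocorticoid-responsive genes, 8 rose in sedentary rats (4.3% of all genes rose), 5 in exercised rats (0.875%) and 11 on average (17.2%), and 0 fell. Their median averaged Log2FC was 1.03 against 0.01 over all genes. Klf15 stands on this list and on the FoxO list. Mt2A, a metallothionein, rose by 5.92 ± 1.00 on average and by 4.16 without CC-Ex replicate 5. Ddit4, an inhibitor of mTORC1, rose by 2.84 ± 0.44, Cebpd, a transcription factor, by 2.63 ± 0.41, and Fkbp5, a cochaperone of the glucocorticoid receptor, by 1.81 ± 0.30. Nr3c1, which encodes the receptor itself, had an averaged Log2FC of -0.09 (adjusted p = 0.273, edgeR).

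Proteasome subunits had smaller and more uniform differences. Of 35 genes, 33 had a positive averaged Log2FC with a median of 0.51, 24 rose on average (68.6%, where 17.2% of all genes rose), and 0 were called in either separate comparison. Psmd8 rose by 1.10 ± 0.30, Psmd11 by 0.85 ± 0.26, Psma5 by 0.71 ± 0.26 and Psmd3 by 0.69 ± 0.22 on average. The call of Psma5 held in 10 of 24 fits with 1 rat left out, and its value was 0.34 without CC-Ex replicate 5. The median was -0.15 for training in control rats and -0.15 in CC rats, with 0 genes called.

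The core of the SCF complexes that hold the F-box proteins had small differences. Of 12 SCF core and cullin-RING subunits, 1 rose in sedentary rats (Cul4b; 8.33%, where 4.3% of all genes rose). None rose in exercised rats (0.875% of all genes), and 4 rose on average (33.3%, where 17.2% rose), and 0 fell. In either direction 6.46% of all genes were called in sedentary rats and 27.8% on average. The averaged values were 0.54 ± 0.12 for Cul4b, 0.48 ± 0.15 for Cul1, the SCF scaffold, 0.24 ± 0.07 for Skp1, the F-box adaptor, and 0.13 ± 0.05 for Cul4a. The averaged Cul4a call held in 8 of 24 fits with 1 rat left out, and the Cul1 call in 23. The Cul4b call in sedentary rats held in 2 of 12 such fits.

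Of 21 other E3 ligases and adaptors of muscle, 4 rose and 3 fell on average, and this share of 33.3% was near the 27.8% called of all genes. In sedentary rats only Fbxw7 was called, which fell by 0.73 on the log2 scale, a call kept in 2 of 12 fits with 1 rat left out. On average Zfand5, a ubiquitin binding protein that activates the proteasome, rose by 1.23 ± 0.28, Cblb by 1.15 ± 0.24 and Ubr4 by 0.59 ± 0.17, while Fbxw7, an F-box protein of the SCF type, fell by 0.62. Asb2, Mdm2, Stub1 and Huwe1 were among the 14 not called.

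Of 20 ubiquitin, E1 and E2 genes, 5 rose and 2 fell on average, or 35% against the 27.8% of all genes that were called. Ube2j1, an E2 of the endoplasmic reticulum, rose by 0.91 ± 0.21. Ube2g2 rose by 0.80 ± 0.21 and Ube2o by 0.86 ± 0.31, where the Ube2o call held in 11 of 24 fits with 1 rat left out.

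Of 21 genes encoding known substrates and partners of the ligases, 3 rose and 3 fell on average, or 28.6%, nearly the share of all genes called (27.8%). Irs1, the insulin receptor substrate known as a Fbxo40 target, fell by 1.10 on the log2 scale, and Myod1, known as a Fbxo32 target, fell by 1.38, a call kept in 18 of 24 fits with 1 rat left out. Sqstm1 and Nbr1, autophagy receptors known as MuRF partners, rose by 1.12 ± 0.25 and 0.66 ± 0.18. The thick filament gene Myh4 had an averaged Log2FC of -0.09 (adjusted p = 0.755, edgeR) and Acta1, skeletal actin, of -0.08 (0.641). These are RNA levels, and the proteins that the ligases act on were not measured here.

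**Figure D4:**
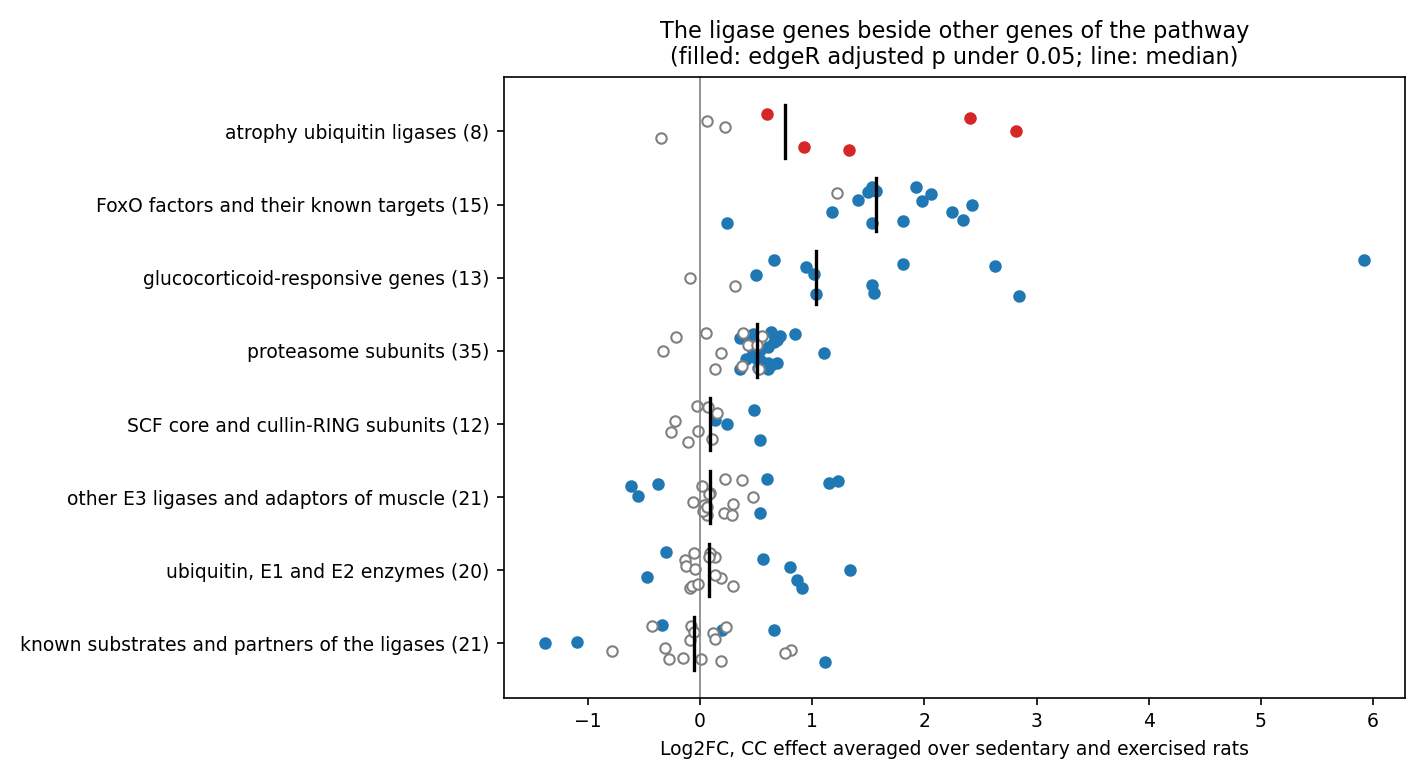
Averaged CC Log2FC of every tested gene of each list, 1 point per gene (filled where edgeR's adjusted p was under 0.05), with a bar at the list median, the number of genes in brackets and the 8 ligases in the first row. The FoxO and glucocorticoid rows lie mostly to the right of 0 (medians 1.57 and 1.03), the proteasome row is narrow around 0.51, and the 4 rows under it are centred near 0.

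Markers of other cells also differed between the groups. In the averaged contrast, where 27.8% of all genes were called, 3 of 6 fibroblast markers fell (Col1a1, Col1a2 and Col3a1), and their summed level had a median of 1597 CPM in Sed rats, 2063 in Ex rats, 792 in CC-Sed rats and 474 in CC-Ex rats, with CC-Ex replicate 5 lowest of all at 151. Of 3 erythroid markers tested, 2 rose on average, with CC-Ex replicate 5 again lowest at 33.8 CPM against a CC-Ex median of 318. The 7 slow fibre markers had a median Log2FC of 1.64 in sedentary and 0.16 in exercised rats with 0 called, and the 9 immune markers had 0 called. Of 11 muscle fibre markers 1 fell on average (Casq1), and of 9 fast fibre markers 0 did. Among the remaining lists 3 endothelial markers rose and 1 fell of 7, 2 smooth muscle markers of 5 fell, 1 satellite cell marker rose and 1 fell of 4, 1 adipocyte marker of 3 fell, and 0 of 4 Schwann cell markers were called. The satellite cell marker that fell was Myod1, which also stands on the substrate list. Its mean in Sed rats was 103 CPM, where the summed satellite cell markers ran from 55.5 to 201. No marker in the table was at 0. Their part in the values of the ligases was not tested.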

How the data were processed

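RNA was measured in 24 medial gastrocnemius libraries, 6 per group. Per the labels and the study's methods, the authors trimmed reads with Trim Galore, estimated transcript abundance with Salmon against the Ensembl mRatBN7.2 rat transcriptome and summed it to genes from stranded poly-A libraries. The deposited values are expected counts rounded to whole numbers, not normalized, and no gene was below 10 in any library, so genes low in any rat are not analysed here. The authors' own tests used DESeq2 1.44.0.

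Counts were scaled by TMM and fitted with edgeR 4.0.16 in R 4.3.3 (quasi-likelihood test, 4 group means over all 24 rats), which shares 1 estimate of the spread. DESeq2 1.42.0 was run on the deposited counts with the same 4 group means as an alternative, as was limma-voom (limma 3.58.1). Contrasts were CC against control in sedentary rats, the same in exercised rats, the average of these, training in controls, training in CC rats and the interaction. Calls used a Benjamini-Hochberg adjusted p under 0.05 over 10851 genes. Correlations used log2 CPM with a prior count of 2. Other alternatives were upper-quartile scaling, a minimum of 100 counts, only the groups compared, the replicate block, the library number as a covariate, removal of the 10 genes with the highest counts and removal of each rat. The library number ran from 1 to 14 in CC-Ex, 4 to 21 in CC-Sed, 7 to 23 in Ex and 9 to 24 in Sed rats. It was thus partly confounded with the groups.

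Libraries differed beyond sampling noise (smallest chi-square per degree of freedom 28.1), and members held 197 to 206594 counts (median biological coefficient of variation over all genes 0.213). Counting error was smaller than the spread between rats for 7 members in every group, and for Fbxo21 in CC-Ex (counting error 5.07% to 6.35%) it was close to the coefficient of variation of 6.59%. The fits and correlations were tested on simulated data. The members and the gene lists were chosen with earlier results of these data known. Of each list at most 4 genes called in a CC contrast were named, those with the largest log2 fold change in size. Klf15, Nr3c1, Asb2, Mdm2, Stub1, Huwe1, Myh4, Acta1, Casq1 and the collagens were named outside this rule, after their values were seen. The authors' tests were not used. A further list gene that the rule names is not reported here.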

Additional observations from a re-analysis of the deposited data

Results flagged for a closer look

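Each of the 8 ligases was examined in each of the 4 groups for a rat whose gap to the nearest other rat took up more of the group's range than Dixon's 95% critical value for 6 samples. The rule was applied to CPM and not to log2 CPM. It marked 6 of 32 combinations, where chance marks about 1 in 20 if values within a group are normally distributed. That was not tested, so the 6 marks are not read as an excess over chance. All 6 were highest rats, and on the log2 scale such a gap takes up less of the range. The combinations share rats and are not independent. In CC-Ex, replicate 5 was the distant rat for 5 genes. Its Fbxo32 was 2755 CPM where the next rat had 775, its Trim63 was 4846 against 1248, and its Fbxo30 was 123 against 25.9. Its Fbxo31 was 353 against 91.4 and its Trim54 was 942 against 554. This rat was also the lowest of its group in 7 of 11 marker sums, those of fibroblast (151 CPM), erythroid (33.8), slow fibre (691), immune (60.8), Schwann cell (16.8), satellite cell (15.0) and smooth muscle markers (104), and their part in its ligase levels was not tested. The remaining case was Trim63 in Ex replicate 1, at 295 CPM where the next Ex rat had 203.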

How the results depend on the processing

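With all 24 rats in turn left out, the averaged CC contrast kept its 5 called ligases, and the count ran from 5 to 7. For the separate comparisons only the 12 rats of the groups compared were left out in turn. There the count of 2 in Sed vs. CC-Sed ran from 0 to 4, and the count of 1 in Ex vs. CC-Ex from 0 to 3. The genes called of 10851 ran from 173 to 1726 and from 2 to 847 in these fits. The 14 correlated pairs ran from 7, without CC-Ex replicate 5, to 20. The count for Sed vs. CC-Sed was 3 with DESeq2, upper-quartile scaling, a minimum of 100 counts, only the groups compared and the library number as a covariate. Between 674 and 1331 genes were called there. It was 6 with limma-voom and 6 with both Sed replicate 5 and CC-Ex replicate 5 left out. Of the 10851 genes 2474 and 1809 were called in these fits, against 701 in the main fit. The count for Ex vs. CC-Ex was 3 with DESeq2, 2 with a minimum of 100 counts, 2 with the library number as a covariate, 2 with limma-voom, 0 with only the groups compared, 0 with the replicate block and 0 with both Sed replicate 5 and CC-Ex replicate 5 left out. The average gave 3 where a DEG was required. Genes called of 10851 moved from 701 to 1331 (DESeq2) and 2474 (limma-voom) for Sed vs. CC-Sed, and from 108 to between 1 and 1043 for Ex vs. CC-Ex. The share of calls that were higher moved from 66.6% to 52% with upper-quartile scaling in Sed vs. CC-Sed, from 61.8% to 45.2% with it on average, and from 88.0% to 77.8% with DESeq2 and 59.5% with limma-voom in Ex vs. CC-Ex. No scaling moved the median of all genes by over 0.1. The cause of these moves was not tested.

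Replicate numbers did not pair the rats. Of 24 same-numbered pairs 8 had a correlation over 0.1 (mean -0.0793), and 2 rats correlated best with their own number. The replicate block changed the count for Ex vs. CC-Ex as above and gave 2 for Sed vs. CC-Sed. Depth limits Fbxo21, whose counting error in CC-Ex rats (5.07% to 6.35%) was close to its spread between them (6.59%), more than the other 7 ligases, whose spread between rats was over 1.5 times their counting error in every group.

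The Log2FC of single genes that changed sign, none past the test after the change, are given by alternative. With DESeq2, Fbxo40 was -0.011 for Sed vs. CC-Sed, and Fbxo31 was 0.0021 for training in CC rats. With upper-quartile scaling, Fbxo40 was -0.073 for Sed vs. CC-Sed, and Fbxo40 was -0.036 for the average. With a minimum of 100 counts, Fbxo40 was -0.033 for Sed vs. CC-Sed. With only the groups compared, Fbxo40 was -0.0026 for Sed vs. CC-Sed. With limma-voom, Fbxo40 was -0.041 for Sed vs. CC-Sed, Fbxo40 was -0.20 and Ube2o -0.0042 for Ex vs. CC-Ex, Fbxo40 was -0.12 for the average, Trim54 was 0.028 for training in controls, Fbxo30 was -0.66, Fbxo40 -0.24 and Fbxo21 -0.017 for training in CC rats, and Fbxo32 was -0.72, Trim63 -0.85, Fbxo30 -0.58, Fbxo40 -0.16 and Fbxo31 -0.38 for the interaction. With both Sed replicate 5 and CC-Ex replicate 5 left out, Fbxo40 was -0.014 for Sed vs. CC-Sed, Fbxo40 was -0.14 and Ube2o -0.070 for Ex vs. CC-Ex, and Fbxo40 was -0.076 for the average. With both CC-Ex replicates 4 and 5 left out, Fbxo40 was -0.26 and Ube2o -0.089 for Ex vs. CC-Ex, Fbxo40 was -0.12 for the average, Fbxo30 was -0.79, Fbxo40 -0.32 and Fbxo21 -0.0026 for training in CC rats, and Fbxo32 was -0.27, Trim63 -0.63, Fbxo30 -0.65, Fbxo40 -0.27 and Fbxo31 -0.53 for the interaction. With the replicate block, Fbxo30 was -0.30 and Trim55 -0.0093 for training in CC rats, and Fbxo32 was -0.43, Trim63 -0.42, Fbxo30 -0.26 and Fbxo31 -0.099 for the interaction. With the library number, Fbxo31 was 0.088 for training in CC rats. With 1 rat left out, more values changed sign, and their ranges over these fits follow. Sed vs. CC-Sed ranged from -0.079 to 0.12 for Fbxo40. Ex vs. CC-Ex ranged from -0.14 to 0.21 for Fbxo40 and from -0.070 to 1.13 for Ube2o. The average ranged from -0.078 to 0.11 for Fbxo40. Training in controls ranged from -0.22 to 0.036 for Fbxo30, from -0.12 to 0.022 for Fbxo40, from -0.16 to 0.00059 for Fbxo31 and from -0.063 to 0.015 for Trim54. Training in CC rats ranged from -1.03 to 0.12 for Fbxo32, from -1.41 to 0.13 for Trim63, from -0.91 to 0.36 for Fbxo30, from -0.17 to 0.15 for Fbxo40, from -0.045 to 0.057 for Fbxo21, from -0.60 to 0.17 for Fbxo31 and from -0.12 to 0.21 for Trim55. The interaction ranged from -0.52 to 0.64 for Fbxo32, from -0.82 to 0.72 for Trim63, from -0.77 to 0.50 for Fbxo30, from -0.12 to 0.20 for Fbxo40, from -0.50 to 0.27 for Fbxo31 and from -0.37 to 0.0092 for Trim54. The cause of these changes of sign was not tested.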
